A study of Rattus norvegicus with 4 samples.

Results

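The DNA repair genes described here are 48 genes listed by their role in base excision, nucleotide excision, mismatch, double strand break, Fanconi and direct reversal repair, and not by any measured value. On each array, probes were assigned to a gene through the RefSeq accession of the probe, which gave probes for 39 of the 48 genes, out of 16581 genes named in this way. For the other 9 (Ercc4, Ercc5, Msh6, Rad52, Atr, Prkdc, Fanca, Fancg and Fanci) no probe was matched, so they were not analysed here. The material was total RNA of NR8383, a macrophage line derived from a normal rat by lung lavage and used after 20 passages, a culture in which adherent and floating cells occur side by side. All 4 samples are biological replicates of 1 group, cells grown for 48 h and then exposed for 4 h to NRCWE049, carbon nanotubes that carry amino groups, at 1.2 cm² of nanotube surface per cm². The unexposed cells of the design were not analysed here, so the values show the state of repair genes in exposed macrophages and how far replicates differ, and they cannot show what the nanotubes changed. Of 10 macrophage markers matched, 9 were detected (Marco was not), against 0 of 5 epithelial, 0 of 3 fibroblast, 2 of 3 T cell (Cd3d and Cd4) and 0 of 1 B cell markers. The proliferation markers Mki67, Pcna, Ccnb1 and Mcm2 were all detected.

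Between 19143 and 19311 of 45598 probes were well above background on each array, no spot was saturated, and the precision of every value is limited by the number of arrays. The 4 arrays lay on 1 slide, so that position on the slide and replicate cannot be told apart. In total RNA, fewer cells transcribing a gene and less RNA per cell cannot be told apart either.

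DNA repair works by routes that each handle a kind of damage. In base excision repair a glycosylase removes a damaged base, a nuclease cuts the strand and a polymerase and a ligase fill the gap; this is the main route for bases oxidised by reactive oxygen, which macrophages make in quantity. Nucleotide excision repair cuts out a stretch around bulky lesions, mismatch repair corrects replication errors, double strand breaks are either rejoined end to end or copied from the sister chromatid, and the Fanconi proteins act at crosslinks between strands. Direct reversal removes an alkyl group from a base without cutting the strand.

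Most of the repair genes were transcribed in the exposed macrophages. Of the 39 measured genes, 35 (89.7%) were detected, which means a signal that Agilent's software marked as well above background on all 4 arrays, against 52.5% of all named genes. The list was described by its counts, with no test for enrichment. The 4 genes not detected were Neil2, Rad50, Lig4 and Mgmt, and none of them was well above background on any array. By route, 12 of 13 base excision genes, 9 of 9 nucleotide excision genes, 2 of 2 mismatch genes, 10 of 12 double strand break genes, 2 of 2 Fanconi genes and 0 of 1 direct reversal gene were detected. A probe that misses its transcript and a transcript that is absent give the same reading, and 27 of the 39 genes had 1 probe.

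**Figure D1:**
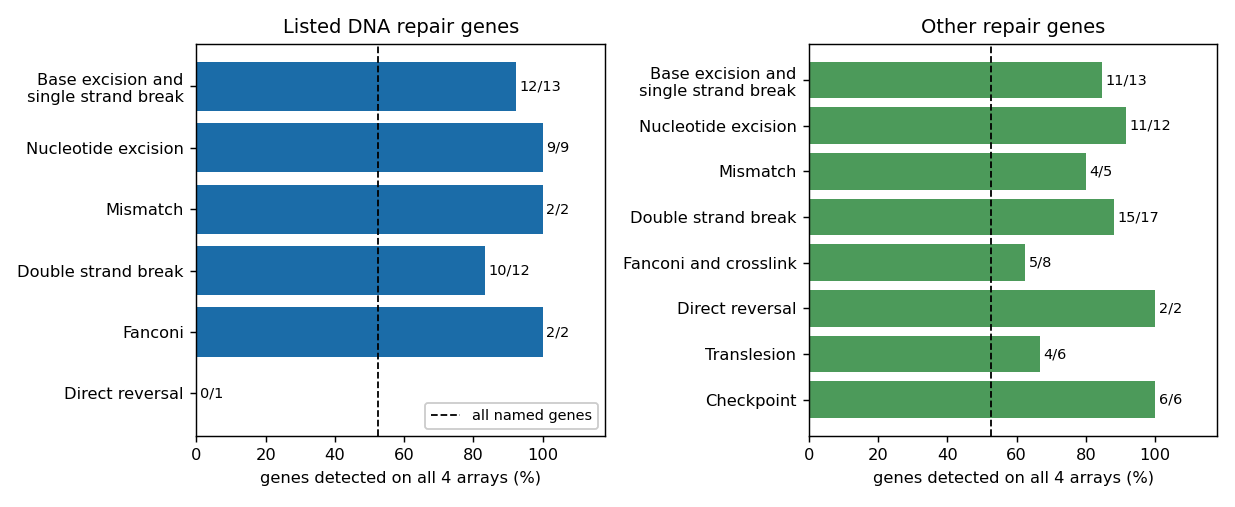
Share of measured genes detected on all 4 arrays (percent, horizontal axis) for the listed repair genes by route (left) and for the other repair genes by route (right); labels give genes detected over genes measured, and the dashed line is the share of all named genes (52.5%). Every route with more than 1 measured gene lies above the line, and Mgmt, alone in the direct reversal route on the left, is at 0 of 1.

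The promoters of the repair genes were rich in CpG, including those of the 3 undetected genes that had an entry. RefSeq promoters (GRCr8 assembly) were found for 41 of the 48 genes, and the 250 bases before the annotated start were examined. The sequences of 5 are shown to span this range: Mgmt, Lig4 and Rad50, which were not detected, Ercc6, which was detected with few CpG, and Ogg1, the glycosylase for oxidised guanine. Capitals mark each CpG, and each sequence is written 5′ to 3′ along the strand of its gene.
Mgmt (chr1:201140582-201140831, plus strand): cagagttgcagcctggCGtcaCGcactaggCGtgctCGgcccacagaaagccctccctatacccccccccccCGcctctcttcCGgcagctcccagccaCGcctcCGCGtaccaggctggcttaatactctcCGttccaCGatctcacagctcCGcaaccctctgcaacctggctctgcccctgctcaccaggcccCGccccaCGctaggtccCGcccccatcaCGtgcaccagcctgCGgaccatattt
Lig4 (chr16:86220192-86220441, plus strand): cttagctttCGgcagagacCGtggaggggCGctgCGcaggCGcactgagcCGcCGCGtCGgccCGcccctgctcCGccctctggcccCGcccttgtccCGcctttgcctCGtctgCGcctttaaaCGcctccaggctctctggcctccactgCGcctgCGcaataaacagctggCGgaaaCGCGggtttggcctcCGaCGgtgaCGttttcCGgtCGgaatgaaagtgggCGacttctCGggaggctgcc
Rad50 (chr10:38362101-38362350, minus strand): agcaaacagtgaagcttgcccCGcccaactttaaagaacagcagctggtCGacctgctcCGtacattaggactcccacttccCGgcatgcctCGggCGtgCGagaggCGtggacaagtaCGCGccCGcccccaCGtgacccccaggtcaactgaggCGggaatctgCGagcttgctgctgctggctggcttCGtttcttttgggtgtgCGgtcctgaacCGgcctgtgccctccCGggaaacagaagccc
Ercc6 (chr16:7775009-7775258, plus strand): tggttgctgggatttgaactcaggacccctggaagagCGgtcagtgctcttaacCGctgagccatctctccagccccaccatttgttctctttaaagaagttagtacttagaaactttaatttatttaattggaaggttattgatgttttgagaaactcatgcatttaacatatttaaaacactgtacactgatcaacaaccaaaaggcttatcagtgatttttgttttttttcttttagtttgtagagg
Ogg1 (chr4:148030336-148030585, plus strand): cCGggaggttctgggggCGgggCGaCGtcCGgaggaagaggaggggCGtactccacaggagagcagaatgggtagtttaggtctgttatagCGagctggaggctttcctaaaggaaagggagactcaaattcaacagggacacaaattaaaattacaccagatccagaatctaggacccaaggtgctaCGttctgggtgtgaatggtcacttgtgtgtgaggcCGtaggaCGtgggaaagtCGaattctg

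The sequence of Mgmt held 17 CpG at 66.4% G and C, that of Lig4 28 CpG at 67.6%, and that of Rad50 18 CpG at 62.4%. Ogg1 held 11 CpG at 52.8%. Ercc6, at 36.8% G and C, held 2 CpG and was detected with 1 of its 2 probes. The ratio of observed to expected CpG was 0.73 for Mgmt, 0.99 for Lig4 and 0.74 for Rad50, and 0.24 for Ercc6. The median ratio was 0.81 over 30 detected repair genes, beside 0.76 over 7294 detected genes and 0.34 over 6261 named genes that were not detected. The letters TATAAA occurred on either strand in 0 of 41 repair gene promoters, beside 13.1% of all 27456 promoters of this length and 6.84% of those of detected genes. GGGCGG, the GC box, was present in 27 of 41 (65.9%), beside 57.9% of detected genes and 32.4% of all promoters, and CGGAAG, the core of ETS sites, in 17 of 41 (41.5%), beside 30.1% and 14.7%. CCAAT occurred in 16 of 41, beside 36.8% of detected genes and 34.3% of all promoters. The E2F core, searched as TTTCCCG or TTTCGCG or TTTGCCG or TTTGGCG, was present in 6 of 41 (14.6%), beside 9.49% and 5.84%. Both strands were searched, matches of different motifs may share bases, and a match is a run of letters, not a site shown to be bound. A ratio above 0.6, a usual mark of CpG islands, was found for 34 of 41 repair genes (82.9%), beside 69.9% of detected genes and 35.4% of all promoters.

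**Figure D2:**
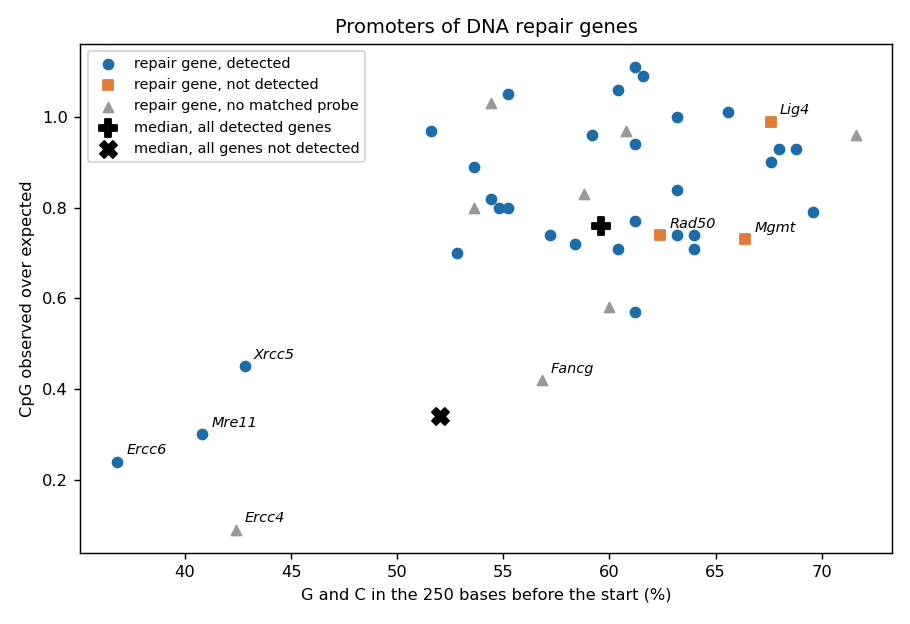
Share of G and C (percent, horizontal axis) against the ratio of observed to expected CpG (vertical axis) in the 250 bases before the start of 41 repair genes, by whether the gene was detected, not detected or without a matched probe; black marks are medians over all detected genes and over all named genes not detected. Mgmt, Lig4 and Rad50 lie among the detected repair genes, and Ercc6, Mre11 and Xrcc5 are detected genes with few CpG.

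A few of these genes lie close to each other in the assembly. The starts of Ercc1 and Ercc2 are 36.6 kb apart on chromosome 1, those of Apex1 and Parp2 111 kb apart on chromosome 15, and those of Ogg1 and Fancd2 204 kb apart on chromosome 4. All 6 were detected. The SD over replicates differed between Ercc1 (0.20) and Ercc2 (0.019) and between Ogg1 (0.25) and Fancd2 (0.068). Apex1 and Parp2 were closer, at 0.17 and 0.22. Values from here on are levels, that is log2 signals from which the 75th percentile over the detected probes was subtracted on every array. They serve to follow a gene across replicates, since probes differ in how well they bind and levels of different genes are not comparable.

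Of the 7 base excision glycosylases, 6 were detected. Ogg1, which removes 8-oxoguanine, had levels of -1.52, -2.10, -1.93 and -1.93 in replicates 1 to 4 (mean -1.87 ± 0.25, SD, n = 4). Replicate 1 was highest and the highest replicate was 1.49-fold above the lowest. Mutyh, which removes adenine placed opposite 8-oxoguanine, was at -3.08, -3.26, -2.88 and -2.61 (mean -2.96 ± 0.28). Both genes were lowest in replicate 2, and Mutyh was highest in replicate 4. Both probes of Mutyh gave this order, with deviations from their own mean of -0.12, -0.31, 0.08 and 0.35 for the probe used and -0.01, -0.19, 0.03 and 0.16 for the other.

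Ung, the uracil glycosylase, was at -1.61, -1.91, -1.86 and -1.78 (SD 0.13), and Nthl1, which acts on oxidised pyrimidines, at -0.88, -1.09, -1.09 and -1.03 (SD 0.10). Mpg, which removes alkylated purines, was at -1.66, -1.68, -1.50 and -1.64 (SD 0.084). Ung and Nthl1 were highest in replicate 1, and Mpg in replicate 3. Neil1 was detected with dim spots, at signals of 61.6, 56.9, 66.4 and 61.6, where the lowest signal well above background was 16.7 to 20.1 by array. Its levels of -5.00, -5.12, -5.23 and -5.29 stayed within 1.22-fold. Neil2, a glycosylase of the same family, read 11.8, 9.3, 4.7 and 4.6 and was well above background on 0 of 4 arrays. Agilent's own error estimate for the Neil2 spot was 38.7% to 101% of its signal.

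Downstream of the glycosylases all 6 listed genes were detected, the endonuclease Apex1, the gap-filling polymerase Polb, the scaffold Xrcc1, the ligase Lig3 and the strand break sensors Parp1 and Parp2. Xrcc1 was among the 6 repair genes that varied least (1.89, 1.81, 1.79 and 1.75; SD 0.060), from 2 spots per array. Parp1, printed as 10 spots per array, had levels of 2.00, 2.07, 2.11 and 2.14, and the SD between its spots within an array was 0.11 to 0.14. The SE of an array mean over the 10 spots was 0.035 to 0.045, and the SD of the array means was 0.061. Lig3, the partner of Xrcc1, was at -1.36 in replicates 1 and 2 and at -1.02 in replicates 3 and 4, 1.27-fold apart. Its other probe gave deviations of -0.14, -0.01, -0.02 and 0.17. Mki67, the proliferation antigen, was also higher in replicates 3 and 4, at -0.10, -0.04, 0.63 and 0.63, whereas Pcna (1.78, 1.71, 1.64 and 1.65) and Mcm2 (3.91, 3.82, 3.82 and 3.81) were slightly higher in replicate 1 and Ccnb1 (0.58, 0.23, 0.53 and 0.56) was lowest in replicate 2. The part of these markers in the repair genes' values was not tested. Apex1, Polb and Parp2 spanned 1.29-fold, 1.15-fold and 1.40-fold.

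Replicate 1 held the highest value for 7 of the 12 detected base excision genes, where it did so for 34.6% of all detected genes. Averaged over the 12, deviations from each gene's own mean were 0.08, -0.07, -0.02 and 0.00 in replicates 1 to 4. Their range of 0.15 came to 0.073 without replicate 1. Under scaling to the median over all probes the order changed, with 0.01, -0.23, 0.10 and 0.11. At most 19311 of 45598 probes were well above background on an array. The median over all probes, here and below, is thus the signal of a dim probe.

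All 9 measured nucleotide excision genes were detected. They cover damage recognition (Xpc, Ddb1 and Ddb2), verification and the helicases of TFIIH (Xpa, Ercc2 and Ercc3), the nuclease subunit Ercc1, and Ercc6 and Ercc8, which act when a polymerase stalls in a transcribed gene. Xpc, read from a dim probe, had the largest SD among them, at -4.47, -4.86, -4.99 and -4.60 (SD 0.24), higher in replicates 1 and 4 than in replicates 2 and 3. Ercc2 was nearly flat at -0.73, -0.75, -0.76 and -0.72 (SD 0.019), which is a range of 1.03-fold. With scaling to the median over all probes Ercc2 deviated by -0.06, -0.17, 0.10 and 0.13. Ercc6 rested on a dim probe, at signals of 43.6, 59.4, 67.1 and 68.7 (levels -5.50, -5.06, -5.22 and -5.13), while its other probe, at 7.1 to 8.3, was well above background on 0 of 4 arrays. The other 6 spanned 1.11-fold to 1.34-fold. The mean deviation over the route stayed between -0.02 and 0.03 in every replicate, a range of 0.049. This flatness depends on the scaling: with the median over all probes the values were -0.04, -0.17, 0.10 and 0.12, a range of 0.288, and with normexp background correction the range was 0.107.

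The detected mismatch and Fanconi genes, 2 of each, had the lowest median SD of the routes, at 0.069 and 0.064, beside 0.13 for base excision, 0.11 for nucleotide excision and 0.14 for double strand break genes. The 4 other mismatch genes detected had a median SD of 0.17, and the 5 other Fanconi and crosslink genes detected 0.12. The low values thus do not extend to either route as a whole. Msh3, which recognises insertion loops, was at -3.98, -3.97, -3.93 and -4.06 (SD 0.056), and Pms2, the endonuclease subunit of the route, at -3.00, -3.14, -3.03 and -3.18 (SD 0.083). Fancc, a subunit of the Fanconi core complex, was at -3.28, -3.40, -3.27 and -3.29 (SD 0.061), and Fancd2, which that complex marks with ubiquitin, at -2.68, -2.83, -2.68 and -2.71 (SD 0.068). Both Fanconi genes were lowest in replicate 2, and all 4 genes spanned 1.13-fold or less. With scaling to the median over all probes Fancc deviated by -0.05, -0.25, 0.16 and 0.13 and Fancd2 by -0.03, -0.26, 0.16 and 0.12. The range of the mean deviation was 0.14 for each route, and it came to 0.021 for the Fanconi genes without replicate 2 and to 0.063 for the mismatch genes without replicate 4.

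Mgmt, which takes the methyl group off O6-methylguanine in direct reversal, gave signals of 4.3, 4.4, 4.9 and 4.9 from 2 spots per array. Agilent's error estimate equalled the signal (100%), and neither the flag for signal well above background nor the weaker flag for a positive and significant signal was set on any array. Under the weaker flag, 37 of 39 repair genes counted as detected, beside 61.7% of named genes, and the 2 that did not were Mgmt and Neil2.

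The mean deviation of the double strand break genes had a range of 0.28 between replicates, which came to 0.072 without replicate 2. With scaling to the median over all probes the range was 0.274, below those of the other routes. Mre11 and Nbn, which form a complex with Rad50, were detected and Rad50, at signals of 11.1, 9.2, 18.4 and 10.1, was not. Mre11 was among the steadiest genes with the probe used (-3.07, -3.06, -2.95 and -3.02; SD 0.058). Its other probe, also detected, varied more, with deviations of -0.20, 0.12, -0.07 and 0.14 (SD 0.163). Nbn was at -3.52 in replicate 1 and at -3.23, -3.22 and -3.25 in the other replicates. Atm, the kinase that this complex activates, was at -5.30, -4.61, -4.77 and -5.05 (mean -4.93 ± 0.30), a span of 1.61-fold with replicate 1 lowest. With normexp background correction its deviations were -0.09, 0.17, 0.02 and -0.10, so that replicates 1 and 4 were about equally low. Its other probe, at signals of 5.2 to 10.1, was not detected.

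Of the genes for repair by copying, Brca1 was at -2.86, -2.30, -2.34 and -2.47 (mean -2.49 ± 0.26), again lowest in replicate 1. The other Brca1 probe, designed on another transcript accession, read 10.7, 18.5, 7.2 and 19.1 and was not detected. Brca2, which loads the recombinase, was at -2.31, -2.13, -2.15 and -2.20 (SD 0.080). Its other probe, also detected, varied more, with deviations of -0.05, 0.33, -0.13 and -0.14 (SD 0.22). Xrcc2 had the smallest SD of all 35 genes, at -2.01, -2.01, -2.00 and -1.98 (SD 0.016), from 1 spot per array with an Agilent error estimate of 10% of its signal. Its deviations were -0.08, -0.17, 0.12 and 0.13 with scaling to the median over all probes. With normexp background correction they were -0.06, 0.01, -0.03 and 0.09, so its rank depends on the processing. Xrcc3, a related recombination factor, spanned 1.24-fold and was highest in replicate 1.

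Of the genes for end joining, both Ku subunits were detected, and their probes moved alike. Xrcc5, the larger subunit, was at 1.09, 1.11, 0.82 and 0.84, higher in replicates 1 and 2 than in 3 and 4, with a span of 1.22-fold. Its other probe gave deviations of 0.14, 0.15, -0.13 and -0.16, within 0.03 of those of the first. Xrcc6, the smaller subunit, was at 1.44, 1.47, 1.35 and 1.37, and its other probe gave 0.12, 0.07, -0.11 and -0.08. All 4 probes thus placed replicates 1 and 2 above 3 and 4, but scaling to the median over all probes brought Xrcc5 to 0.05, -0.01, -0.03 and -0.01 and turned Xrcc6 to -0.04, -0.10, 0.06 and 0.08.

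The ligation step of end joining was read from dim probes. Xrcc4, the partner of the ligase Lig4, had the largest SD of the 35 genes (0.68), from signals of 21.5, 53.5, 23.8 and 27.9, and levels of -6.51, -5.21, -6.71 and -6.43. Replicate 2 was 2.83-fold above the lowest replicate, and without replicate 2 no repair gene spanned more than 2-fold, nor did any with normexp background correction. The other Xrcc4 probe, at signals of 16.2, 18.0, 20.8 and 18.0, was not well above background, and its deviation in replicate 2 was 0.14 where the first probe's was 1.01. Lig4 gave 7.2, 12.5, 8.6 and 10.7 with its brighter probe, well above background on 0 of 4 arrays. Over the 10 detected genes of the route the mean deviation was -0.11, 0.17, -0.02 and -0.04 in replicates 1 to 4, and without Xrcc4 it was -0.08, 0.08, 0.03 and -0.02. Replicate 1 was lowest for 5 of the 10, where it was lowest for 28.5% of all detected genes.

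**Figure D3:**
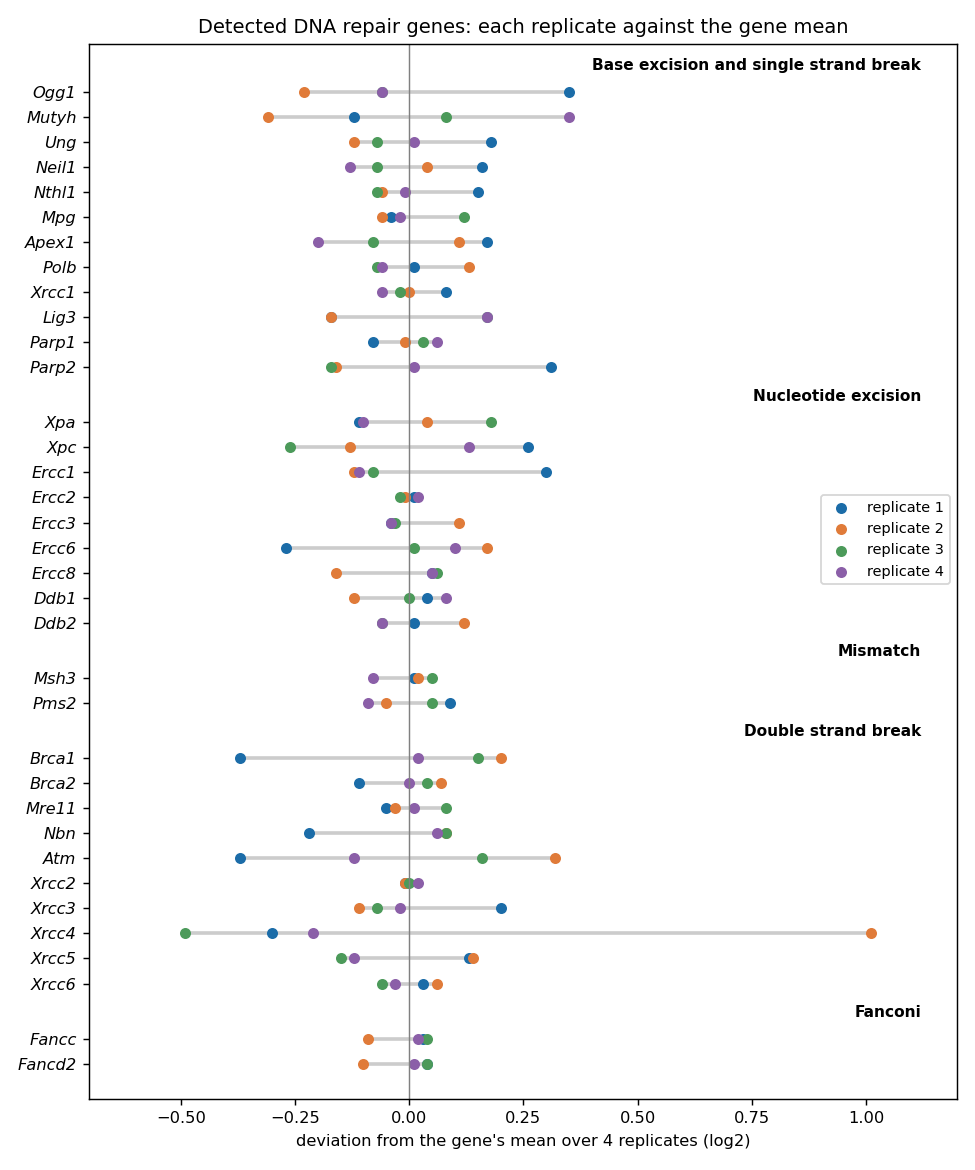
Deviation of each replicate from the mean of its gene (log2, horizontal axis) for the 35 detected repair genes, grouped by route; points are single arrays and grey bars join the lowest and highest. Xrcc4 in replicate 2 stands farthest from its mean (1.01), and Xrcc2 and Ercc2 have points that nearly coincide.

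**Figure D4:**
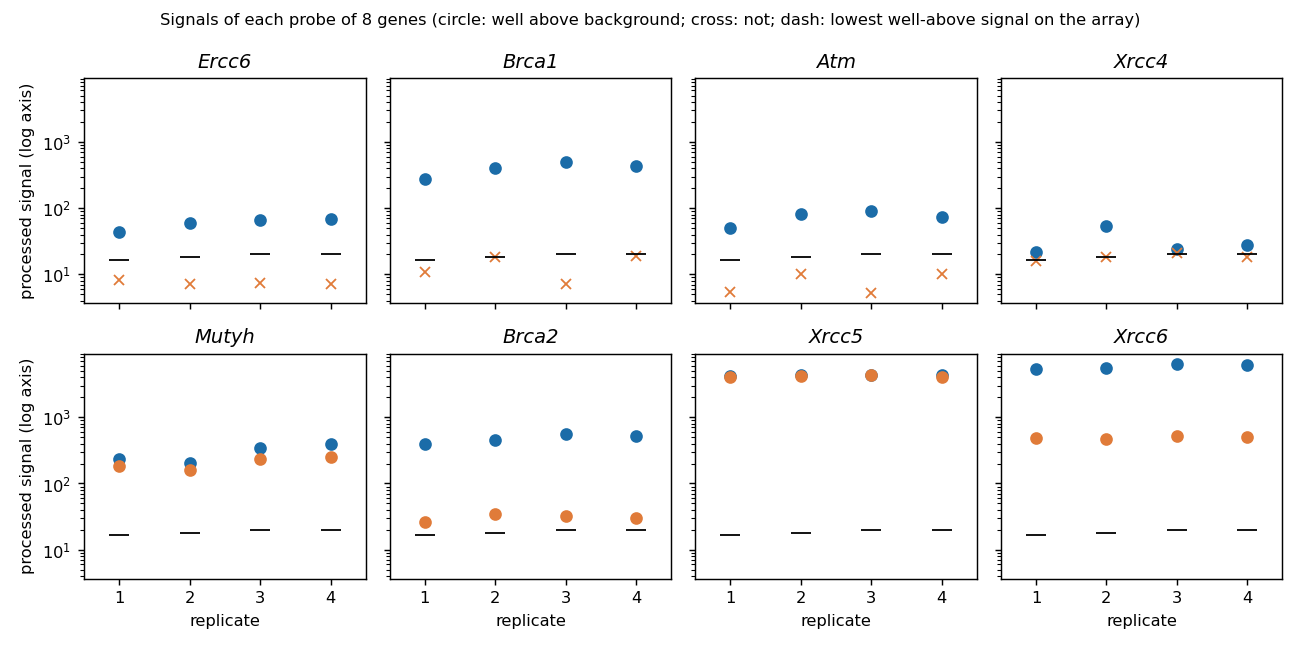
Processed signal (log axis) of each probe of 8 repair genes in replicates 1 to 4, with circles for probes well above background, crosses for probes that were not, and dashes for the lowest signal well above background on each array. In the top row 1 probe of Ercc6, Brca1, Atm and Xrcc4 was not detected; in the bottom row both probes of Mutyh, Brca2, Xrcc5 and Xrcc6 were.

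Where several probes measured a gene they agreed on detection in most cases. Of 12 genes with several probes, 7 had all of them detected, 4 (Ercc6, Brca1, Atm and Xrcc4) had probes that disagreed, and Lig4 had none detected. Between detected probes of a gene, 8 pairs in 7 genes, the largest gap between deviations on the same array ran from 0.03 (Xrcc5) to 0.33 (Ercc8). The same replicate was highest in 4 of the 8 pairs and lowest in 3. No spot of a repair gene was marked as an outlier, and spots within 5 rows and columns of the repair probes had median deviations between -0.11 and 0.18 on every array. The highest, 0.18, was around the Ercc1 probe in replicate 1.

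With the main processing, the repair genes as a group differed little between replicates. Their median SD was 0.11 and their median ratio of the highest to the lowest replicate 1.17, beside 0.15 and 1.26 over all 8713 detected genes. Dim genes vary more, from a median SD of 0.23 in the dimmest of 5 equal groups of detected genes by level to 0.11 in the brightest. Of the 35 repair genes, 11 (31.4%) had an SD above the median of their own group, beside 50% of all detected genes. Mutyh (1.57-fold) and Atm (1.61-fold) were the only repair genes with a span between 1.5-fold and 2-fold, and Xrcc4 was the only 1 above 2-fold, beside 2.66% of detected genes. In limma's fit, tested by an F test of the residual variance of each gene against that of genes of like level, 0 of the 35 passed after Benjamini-Hochberg adjustment over all detected genes (adjusted p 0.969 to 1), beside 0.0115% of all detected genes. At an unadjusted p under 0.05 in limma's F test, fitted across all detected genes, there was 1 (Xrcc4, unadjusted p = 0.031), beside 4.3% of detected genes. With 3 residual degrees of freedom this test can call only very large differences in spread.

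**Figure D5:**
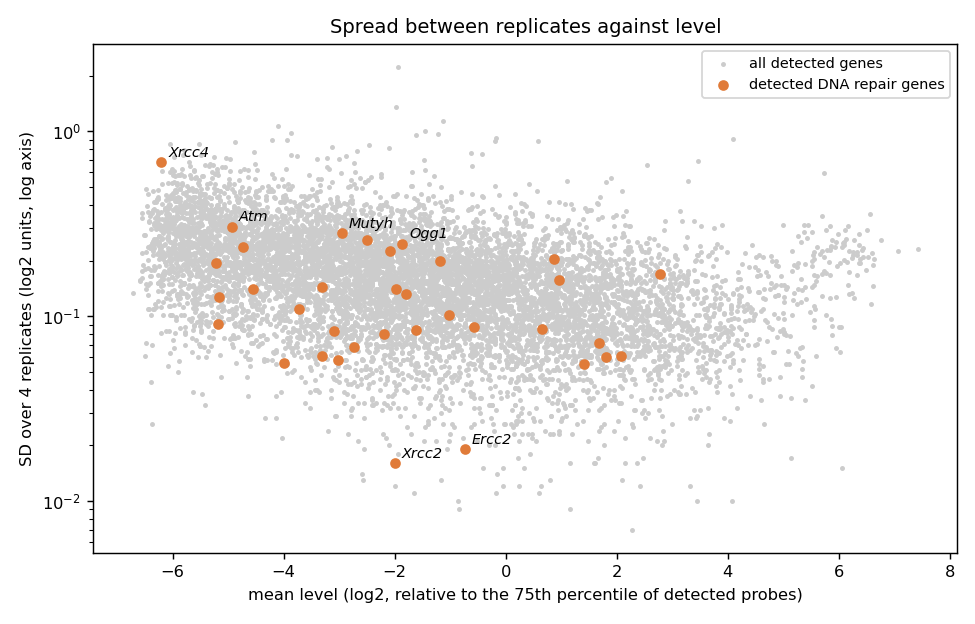
SD over the 4 replicates (log axis) against mean level (log2) for all 8713 detected genes in grey and the 35 detected repair genes in orange. Xrcc4 lies high at the dim end, Xrcc2 and Ercc2 lie at the low edge, and the other repair genes lie within the grey cloud.

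The further genes of the repair network were also mostly detected. Of 86 other repair genes listed by route, 69 were measured and 58 (84.1%) were detected, beside 52.5% of all named genes. This list was chosen with earlier results of these data known. The median SD of the 58 was 0.12, beside 0.15 over all detected genes. None spanned more than 2-fold, beside 2.66% of all detected genes. Detection was 11 of 13 for base excision, 11 of 12 for nucleotide excision, 4 of 5 for mismatch, 15 of 17 for double strand break, 5 of 8 for Fanconi and crosslink, 4 of 6 for translesion, and 6 of 6 for checkpoint genes. Both further direct reversal genes, Alkbh2 and Alkbh3, were detected. The 11 not detected were the glycosylase Neil3, Parg, which removes poly(ADP-ribose), Uvssa, Msh4, which acts in meiosis, Polq and Tp53bp1 of break repair, the Fanconi and crosslink genes Fancb, Fan1 and Dclre1b, and the translesion polymerase genes Poli and Rev3l. Some of these were near the limit: Uvssa was well above background on 3 arrays and Polq and Rev3l on 2. Neil3 and Neil2 were below detection, while the other glycosylases measured were detected. Tp53bp1, which steers breaks towards end joining, and Lig4 were not detected, while both Ku subunits and, with 1 of 2 probes, Xrcc4 were. Among the 58 detected, the largest SD was that of Rad17, a loader of the checkpoint clamp, at -4.60, -5.05, -4.47 and -4.16 (SD 0.37, 1.86-fold).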

How the data were processed

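RNA of 4 exposed cultures was hybridised to 1-colour Agilent rat arrays. The values used are the intensities in the deposited scanner output, processed signals from which background had been subtracted per the file headers. The submitters' processing notes name Agilent Feature Extraction 11.0.1.1. Whether the authors normalized between arrays is not given in the sources used. Control spots and outlier spots were left out, and replicate spots were averaged as log2 signals. Levels were scaled to the 75th percentile of probes detected on all arrays. A gene was detected if at least 1 probe was well above background on 4 arrays, and its level came from its brightest detected probe. Genes were named by matching accessions to a RefSeq table (GRCr8), which differs from the build of the file headers, so it was used for names only. Promoter sequences, their coordinates and distances between starts came from the RefSeq promoter table and refer to GRCr8, not to the build of the arrays. Tests of the spread used limma 3.58.1, run under R 4.3.3 (intercept fit, residual variance against the prior at the gene's level, upper tail, Benjamini-Hochberg over 8713 genes), checked on simulated data. Python 3.11.15 with pandas 2.3.3 made the other values.

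The repair genes and lists were chosen with earlier results of these data known. Values per replicate were set to be given for the glycosylases, Mgmt, routes of up to 5 genes, the 6 largest and 6 smallest SDs and genes whose probes disagree; those of Lig3, Parp1, Nbn, Brca2, Xrcc5, Rad50 and Lig4 were added after their values were seen. Other repair genes were named where not detected or with the largest SD of their route. Alternatives changed the scaling, background correction, filter, probe rule and arrays. Background correction with normexp (offset 50) used the median spot and local background signals.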

Additional observations from a re-analysis of the deposited data

Results flagged for a closer look

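In each of 5 repair genes, 1 replicate stood far from the other 3, judged by its gap to the nearest value as a share of the whole range (critical value 0.829 for 4 values). Ercc8 had a share of 0.955, with replicate 2 low, and Nbn 0.911, with replicate 1 low. Ercc1 had 0.892, with replicate 1 high, and Ercc3 0.873, with replicate 2 high. In replicate 1 Ercc1 lay 0.30 above its mean. Spots around its probe were also raised there, by a median of 0.18 over the median of the other arrays. The part of the neighbouring spots in the Ercc1 value was not tested. Fancc had 0.856, with replicate 2 low. Chance flags about 1 in 20 sets, which is 2 of the 40 sets of 4 values examined. The widest of these 5 genes, Ercc1, spanned 1.34-fold. These calls depend on the processing, a check chosen after their values were seen. Of the 5, 0 passed with scaling to the 75th percentile or to the median over all probes, 1 (Ercc1) with quantile normalization, 2 (Ercc1 and Ercc3) with normexp, and 4 (all but Ercc8) with the mean over detected probes.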

How the results depend on the processing

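The count of detected repair genes lay between 31 (every probe detected) and 37 (positive and significant flag) under all alternatives. The share of all named genes detected was 47.7% and 61.7% under these settings. Without each replicate the count stayed at 35, beside 52.7% to 53% of named genes. The median SD of the repair genes lay between 0.084 and 0.187, and no repair gene passed the limma F test under any alternative. The median SD over all detected genes is given for the main processing only (0.15). Whether the repair genes stay below it under the alternatives was not tested. The count above 2-fold was 0 with normexp, 2 with no filter on dim probes and 0 to 1 without 1 replicate. The range of the mean deviation moved most with scaling to the median over all probes, which is a dim signal. It moved to 0.343 for base excision, 0.288 for nucleotide excision, 0.349 for mismatch and 0.416 for Fanconi genes. With the 75th percentile over all probes it was 0.202 for mismatch and 0.091 for nucleotide excision genes. For nucleotide excision genes it was 0.072 with quantile normalization and 0.107 with normexp, for double strand break genes 0.140 with normexp, and for base excision genes 0.219 with no filter. Without 1 replicate it was 0.073 to 0.153 for base excision, 0.032 to 0.058 for nucleotide excision, 0.063 to 0.136 for mismatch, 0.072 to 0.279 for double strand break and 0.021 to 0.131 for Fanconi genes. Without Xrcc4, an alternative chosen after seeing the data, it was 0.164 for double strand break genes. Either scaling to all probes shifts every gene of an array by the same amount, in all routes alike. The cause of the other changes was not tested. The median level of all genes moved by 3.53 and 7.73 (log2) under the scalings to all probes, by which every gene of an array moves alike, and by -0.30 with the mean over probes. No paired analysis was possible because the samples form 1 group. Signal over background limits the 7 repair genes in the dimmest of 5 equal groups of detected genes, Xrcc4, Ercc6, Atm, Neil1, Polb, Xpa and Xpc.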

Other observations

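The genes below had the largest SD among the detected other repair genes of their route; several undetected genes had larger ones. Dclre1c, the nuclease Artemis that opens hairpin ends for joining, was at -3.72, -3.08, -3.30 and -2.94 in replicates 1 to 4 (SD 0.34), a span of 1.72-fold with replicate 1 lowest. Rpa3, the smallest subunit of the protein that coats single strands, was at 0.41 in replicate 1 and at -0.08 in each of the other replicates (SD 0.25). Aptx, which clears failed ligations, had an SD of 0.27, Ube2t, the ubiquitin ligase partner of the Fanconi route, 0.25, Polh, the polymerase that passes ultraviolet lesions, 0.24, the exonuclease Exo1 0.21, and Alkbh2 0.11. None of these values belongs to a comparison between groups.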
